A study of Mus musculus with 24 samples.

Results

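The genes described here are 6 genes of macrophages (Csf1r, Cd14, Tyrobp, Cd68, Mrc1 and Cd163) and 4 genes of MHC class II antigen presentation (Cd74, H2-Aa, H2-Ab1 and H2-Eb1), measured in the gastrocnemius muscle of mice on high-fat diets. They were taken by name, and the names were chosen with earlier results of these data known. Every probe whose gene name in the scanner files, or whose current RefSeq symbol, was one of these 10 names was taken. These were 16 of the 41174 probes on the array, and 15 of the 16 passed the filter on dim probes (a mean signal of at least 2 times background in both channels). All 10 genes kept at least 1 probe, among 10686 named genes that did so.

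Male C57BL/6N mice, 3 months old at the start and housed in pairs, were fed for 8 weeks. The cHF group ate a corn-oil-based high-fat diet with about 35% lipids by weight. The cHF+F group ate the same diet with 15% of its lipids replaced by a concentrate of long-chain n-3 fatty acids (46% DHA and 14% EPA, as triglycerides). The cHF+ROSI group ate the cHF diet with 10 mg rosiglitazone per kg of diet, an activator of the nuclear receptor PPARγ. All 3 groups were fasted for 10 h in the daytime, re-fed Chow overnight and killed the next morning, so every value describes muscle after a high-fat diet and a Chow meal, and no lean group is part of the comparison. Each group had 8 arrays. Each array carried the RNA of 1 mouse in Cy5 against 1 common pool of muscle RNA in Cy3, which also held mice on a higher rosiglitazone dose. The values below are log2 Cy5/Cy3 ratios, so 0 is the level of the pool, and levels of different genes are not set against each other.

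Between 30.4% and 91.1% of the spots per array were well above background in Cy5. The lowest share was on the array of cHF replicate 3 and the highest on that of cHF+ROSI replicate 4, and the other 22 arrays lay between 41.5% and 61.3%. The 3 groups had 1 array apiece on all 8 slides, always in the same position, so that position on the slide and diet cannot be told apart. The 6 muscle fibre genes used as a check of the tissue were well above background on all 24 arrays. Of other immune cells little was seen. None of 9 T and NK cell genes and none of 5 B cell genes passed the filter, and 1 of 6 dendritic cell genes (Zbtb46) and 1 of 5 neutrophil genes (S100a9) did.

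Macrophages in resting muscle lie between the fibres and around vessels. Csf1r receives the growth factor signal that keeps them alive, Cd14 and Tyrobp pass on signals from microbial products and activating receptors, and Mrc1 and Cd163 take up glycoproteins and haemoglobin. MHC class II molecules are pairs of an α and a β chain (H2-Aa with H2-Ab1) that show peptides to CD4+ T cells, and Cd74, the invariant chain, guides them to the compartment where peptides are loaded. They are made by dendritic cells, B cells and many macrophages, under the control of the coactivator CIITA. In whole muscle RNA, fewer such cells and less RNA of the gene per cell cannot be told apart. C57BL/6 mice do not transcribe H2-Ea, the partner of H2-Eb1, and its probe was well above background on 1 of 24 arrays.

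MHC class II promoters are known for a shared set of short elements just before the start site, one of which, the Y box, binds the factor NF-Y through the letters ATTGG. Among the MHC class II genes, H2-Aa and H2-Eb1 had a window in the collection used, and Cd74 and H2-Ab1 had none. The windows below show the Y box for the α chain H2-Aa and the β chain H2-Eb1. They are the 150 bases before the start site, 5′ to 3′ on the strand of the gene, from RefSeq on build GRCm38.p6 (H2-Aa at chr17:34287824-34287973, minus strand; H2-Eb1 at chr17:34305717-34305866, plus strand), with the longer match CTGATTGG in capitals.
H2-Aa: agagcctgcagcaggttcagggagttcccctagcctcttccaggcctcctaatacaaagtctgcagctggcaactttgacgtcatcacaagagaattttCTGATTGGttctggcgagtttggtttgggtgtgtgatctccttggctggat
H2-Eb1: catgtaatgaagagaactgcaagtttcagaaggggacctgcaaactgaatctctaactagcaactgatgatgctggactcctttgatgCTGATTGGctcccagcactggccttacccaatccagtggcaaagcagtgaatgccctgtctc
The match began 51 bases before the start site in H2-Aa and 62 bases before it in H2-Eb1. Over the 250 bases before the start, on both strands, CTGATTGG occurred in 3.83% of 32851 windows of the mouse genome, and the shorter ATTGG that it contains in 33.8%. Of the 10 genes, 5 were in this collection (Cd68, Mrc1, Cd163, H2-Aa and H2-Eb1). All 5 windows held ATTGG, and CTGATTGG was found in those of H2-Aa and H2-Eb1. These matches are a description of the letters and not evidence of binding.

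Among the receptors and adaptors, Csf1r, the receptor for the macrophage growth factor, had the largest difference of the 10 genes between cHF+F and cHF. Its log2 ratios ran from -0.20 to 0.33 with a median of 0.011 in the cHF mice, from -0.68 to 0.13 with a median of -0.20 in the cHF+F mice, and from -0.29 to 0.26 with a median of -0.17 in the cHF+ROSI mice. Of the 8 cHF+F arrays, 4 were below the lowest cHF array and the rest lay within the cHF range. The group means were 0.018 ± 0.18, -0.20 ± 0.30 and -0.13 ± 0.19 (SD, n = 8 each). The difference between cHF+F and cHF was -0.21 on the log2 scale (SE 0.11, a ratio of 0.862), with an unadjusted p of 0.059 and an adjusted p of 0.76 by limma. Without the array of cHF+F replicate 4, the lowest of all 24, this difference was -0.15. A dimmer Csf1r probe gave -0.12 for the same difference (unadjusted p = 0.11), and the ratios of the probe pair correlated at r = 0.583 across arrays. The third Csf1r probe was too dim for the test.

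Cd14, the co-receptor for bacterial lipopolysaccharide, was the one gene of the 10 past an unadjusted p of 0.05. Its log2 ratios ran from -0.32 to 0.28 (median 0.11) in the cHF mice, from -0.35 to 0.12 (median -0.048) in the cHF+F mice and from -0.19 to 0.082 (median -0.057) in the cHF+ROSI mice. The highest arrays were those of cHF mice, yet replicate 8 was the lowest array of both the cHF and the cHF+F group, and the ranges overlapped. The difference between cHF+F and cHF was -0.19 (SE 0.079, a ratio of 0.876, 7 of 8 cHF+F arrays below the cHF mean), with an unadjusted p of 0.023 and an adjusted p of 0.64 by limma. The Cy3 signal of the same probe, which came from the common pool on every array, was 0.21 higher on the cHF+F than on the cHF arrays (unadjusted p = 0.038, adjusted p = 0.999 by limma). With the Cy5 signal alone, the Cd14 difference between cHF+F and cHF was -0.055. The part of the pool signal in the ratio was not tested.

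Tyrobp, the adaptor that couples activating receptors to their kinases, ran from -0.11 to 0.44 in the cHF mice, from -0.33 to 0.58 in the cHF+F mice and from -0.16 to 0.30 in the cHF+ROSI mice. The highest and the lowest Tyrobp arrays of the study were both from cHF+F mice. Its mean differed from that of cHF by -0.092 (SE 0.11) in cHF+F and by -0.15 (SE 0.11) in cHF+ROSI, each less than the SD between mice of a group. Without cHF+F replicate 4 the first of these was -0.037, and without cHF+F replicate 5 it was -0.167.

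**Figure D1:**
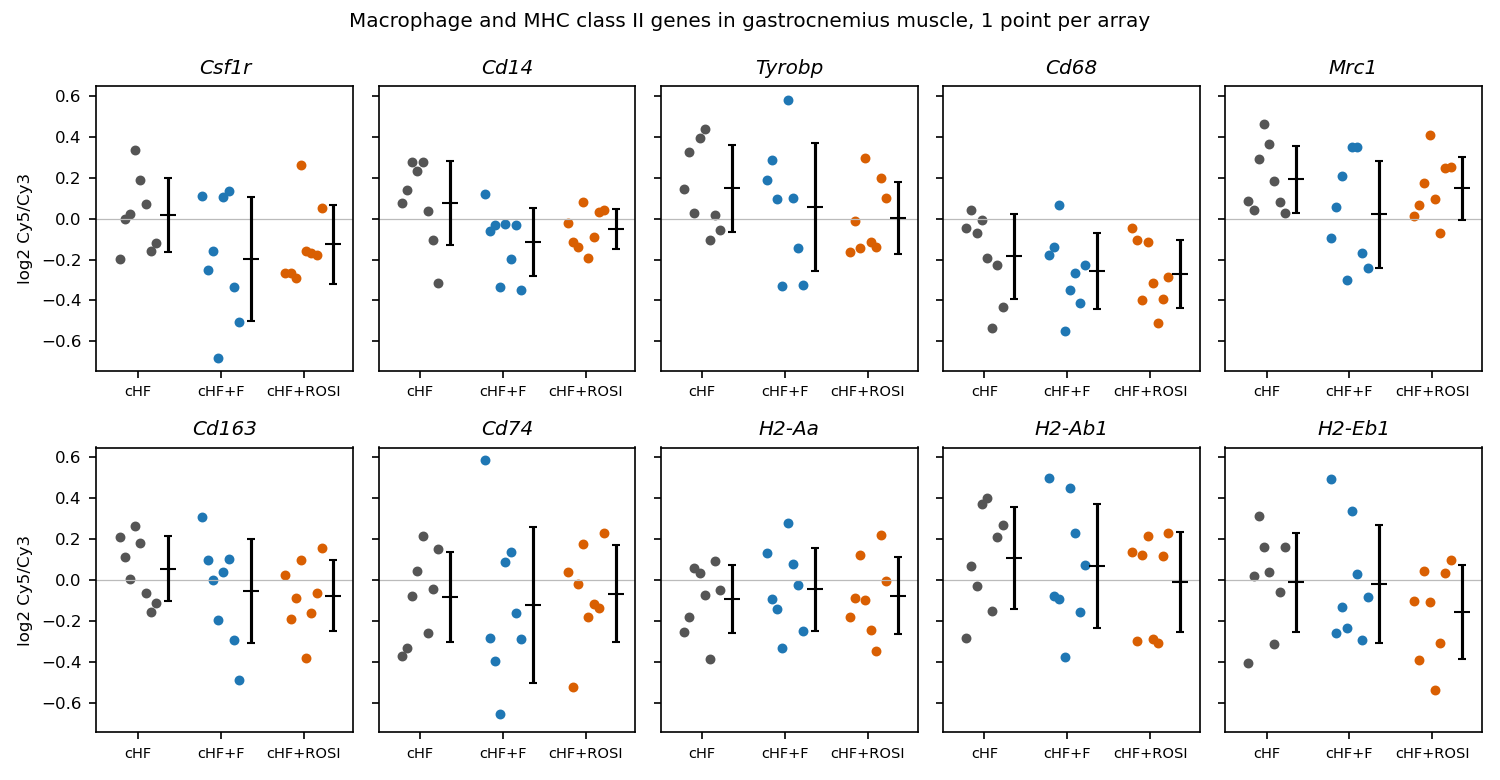
Log2 Cy5/Cy3 ratio (y axis) of the 10 genes on each array, by diet group (x axis, 8 points a group in order of replicate number), with the group mean and SD as a black bar. In every panel the 3 groups overlap, and the cHF+F points of Csf1r reach down to -0.68 while the lowest cHF point is at -0.20.

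The scavenger receptors and Cd68, a glycoprotein of macrophage lysosomes, differed between groups by less than they ranged within a group. Mrc1, the mannose receptor of tissue-resident macrophages, ran from 0.028 to 0.46 in the cHF mice, from -0.30 to 0.35 in the cHF+F mice and from -0.070 to 0.41 in the cHF+ROSI mice. All 8 cHF arrays of Mrc1 were above the pool, whereas 4 of 8 cHF+F arrays lay below the lowest cHF array. The difference between cHF+F and cHF was -0.17 (SE 0.094), with an unadjusted p of 0.081 and an adjusted p of 0.81 by limma, and that between cHF+ROSI and cHF was -0.044 (SE 0.094). Cd163, the haemoglobin scavenger receptor, ran from -0.16 to 0.26 in the cHF mice, from -0.49 to 0.31 in the cHF+F mice and from -0.38 to 0.16 in the cHF+ROSI mice, with differences from cHF of -0.11 and -0.13 (SE 0.095 each). The first was -0.047 without cHF+F replicate 8. Cd68 ran from -0.53 to 0.041 in the cHF mice, from -0.55 to 0.068 in the cHF+F mice and from -0.51 to -0.045 in the cHF+ROSI mice. Nearly all Cd68 ratios were below the pool in every group, and its differences from cHF were -0.073 and -0.087 (SE 0.090 each). The first was -0.031 without cHF+F replicate 4.

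The MHC class II genes varied more over all arrays than most probes, with SDs at or above the 71.9th percentile of the kept probes. The macrophage genes did so too, from the 69.5th percentile for Cd14 to the 89.5th for Csf1r. Such SDs hold differences between diet groups and between arrays as well as between mice. Cd74 had the widest span of the 10 genes, 1.24 on the log2 scale from the lowest to the highest array, and its SD over all arrays exceeded that of 93.3% of the kept probes. Its ratios ran from -0.37 to 0.22 (median -0.061) in the cHF mice, from -0.65 to 0.58 (median -0.22) in the cHF+F mice and from -0.52 to 0.23 (median -0.068) in the cHF+ROSI mice. Both extremes were again cHF+F mice, replicate 4 at the bottom and replicate 1 at the top. The Cd74 mean differed from that of cHF by -0.037 in cHF+F and 0.018 in cHF+ROSI (SE 0.13 each). Without the array of cHF+F replicate 4 the first of these was 0.039, and without that of cHF+ROSI replicate 8 the second was -0.024.

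H2-Ab1, the β chain of the class II molecule of these mice, ran from -0.28 to 0.40 in the cHF mice, from -0.37 to 0.50 in the cHF+F mice and from -0.31 to 0.23 in the cHF+ROSI mice. Its cHF+F and cHF means differed by -0.039 (SE 0.12, 95% interval -0.29 to 0.22). Its 3 further probes gave -0.050, -0.030 and -0.055 for this difference, and the 4 probes correlated with one another at r = 0.746 to 0.943 across arrays. H2-Aa, the α chain, ran from -0.38 to 0.092 in the cHF mice, from -0.33 to 0.28 in the cHF+F mice and from -0.35 to 0.22 in the cHF+ROSI mice. It was the one gene of the 10 with a higher mean in cHF+F than in cHF, by 0.049 (SE 0.089), and by 0.060 at its second probe. H2-Eb1, the β chain left without a partner in this strain, ran from -0.41 to 0.31 in the cHF mice, from -0.29 to 0.49 in the cHF+F mice and from -0.54 to 0.097 in the cHF+ROSI mice. Its cHF+ROSI mean was the lowest of the 3, at -0.15 (SE 0.12, unadjusted p = 0.23) from that of cHF, and no group stood outside the others. The brightest probes lie at bases 33892680 to 33892739 of chromosome 17 for H2-Aa, 33877309 to 33877368 for H2-Ab1 and 33922800 to 33923261 for H2-Eb1 (build mm8, as the scanner files give them).

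Set side by side, 9 of the 10 genes had a lower mean in cHF+F than in cHF, and 1 of 10 (Cd14) was past an unadjusted p of 0.05, where 6.83% of all 15933 kept probes were. None of the 10 passed an adjusted p of 0.05 by limma, and neither did any kept probe (0% in each of the 3 comparisons). The median log2 change was -0.14 over the 6 macrophage genes, all lower, and -0.022 over the 4 MHC class II genes, against 0.0025 over all kept probes, of which 48.8% were lower. With median centring in place of loess these medians were -0.070 and 0.111, and that of all kept probes was 0.113, so that both lists moved with the centring. Over the other settings and the arrays left out in turn the macrophage median stayed below 0, and the MHC class II median reached 0.032 without cHF+F replicate 4. Cd163 was the one macrophage gene to turn its sign, at 0.0054 with the signals processed by Feature Extraction. In cHF+ROSI against cHF, 8 of 10 had a lower mean and 0 of 10 were past an unadjusted p of 0.05 (4.93% of all kept probes). The medians there were -0.13 for the macrophage genes, again all 6 lower (with the Cy5 signal alone Cd163 was 0.050 higher), and -0.050 for the MHC class II genes, against -0.012 over all kept probes, of which 56.6% were lower. Both comparisons use the same 8 cHF arrays, so the cHF values enter both. The 10 genes were read on the same arrays and varied together (below). Counts of lower genes, here and in the lists below, are therefore not counts of independent results. Per array, the mean of the macrophage genes was 0.051 ± 0.153 in cHF, -0.091 ± 0.205 in cHF+F and -0.062 ± 0.124 in cHF+ROSI (SD between arrays). That of the MHC class II genes was -0.020 ± 0.193, -0.029 ± 0.279 and -0.077 ± 0.192 in the same order. Between cHF+F and cHF+ROSI the 10 differences ran from -0.13 for Mrc1 to 0.14 for H2-Eb1 and 0 of 10 were past an unadjusted p of 0.05 (4.66% of all kept probes). The 95% intervals of the 10 differences lay within -0.44 and 0.24 for cHF+F against cHF and within -0.39 and 0.29 for cHF+ROSI against cHF, and none of them reached a change of 1.5-fold (0.585 on the log2 scale).

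**Figure D2:**
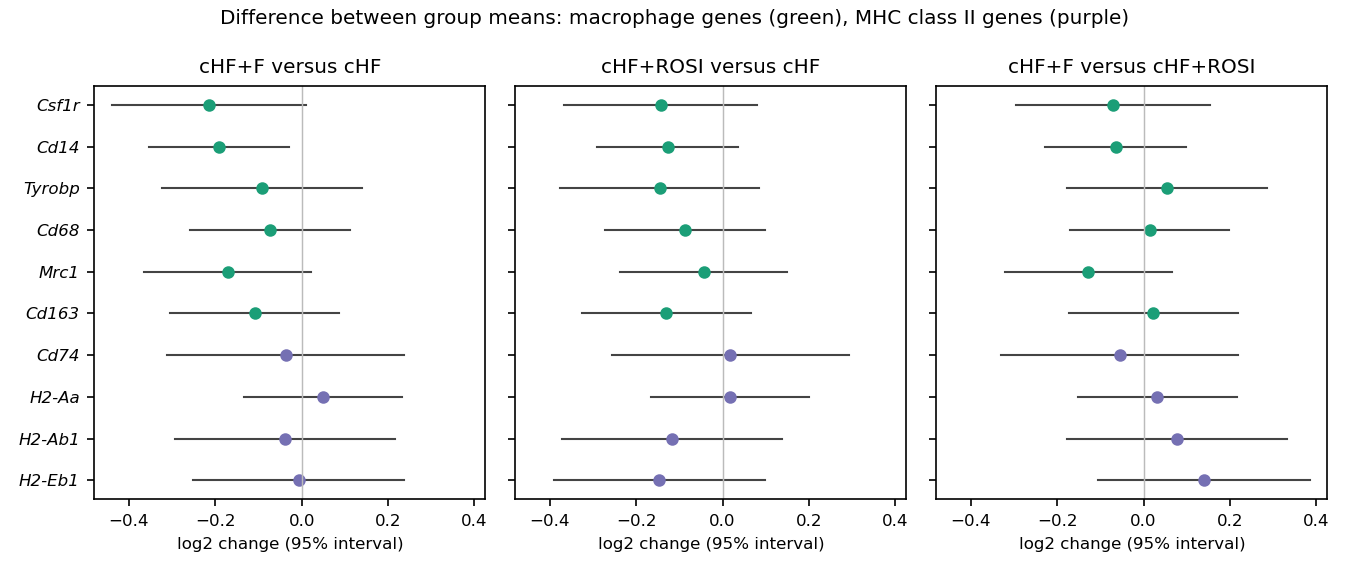
Difference between group means on the log2 scale (x axis) with its 95% interval for each gene (y axis) in the 3 comparisons, with macrophage genes in green and MHC class II genes in purple. All macrophage genes lie left of 0 against cHF in both diets, the MHC class II genes lie around 0 in cHF+F against cHF, and the Cd14 interval in that comparison is the one that does not include 0.

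Within slides, the number on which the cHF+F array was below the cHF array was 6 of 8 for Csf1r, Cd14, Mrc1 and Cd163, 5 for Cd68 and 4 for Tyrobp. For the MHC class II genes it was 5 of 8 for Cd74, H2-Ab1 and H2-Eb1 and 4 for H2-Aa. With slide as a block in the fit, the Cd14 difference had an unadjusted p of 0.025 and an adjusted p of 0.32 by limma. Without the 2 arrays with the lowest and the highest share of spots above background, no gene was past an unadjusted p of 0.05 in any comparison.

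Genes of a list of 29 other genes of macrophages and their growth factors, of which 20 were kept, were mostly lower in both diets as well. The 20 include Ptprc and the ligands Csf1 and Il34, described below, and Csf1 is among those counted at an unadjusted p under 0.05 by limma in cHF+ROSI. In cHF+F 18 of 20 were below cHF, 4 of them at an unadjusted p under 0.05, and their median log2 change was -0.15. Of all 15933 kept probes, 48.8% were below cHF in cHF+F and 56.6% in cHF+ROSI. Below cHF at an unadjusted p under 0.05 by limma were 629 and 542 of the 15933. In cHF+ROSI 18 of 20 were below cHF, 5 of them at an unadjusted p under 0.05, with a median of -0.13. The 3 with the largest difference in cHF+F were Clec10a, a galactose-binding lectin of macrophages and dendritic cells, at -0.43 (SE 0.15, unadjusted p = 0.0063), Folr2, a folate receptor of tissue-resident macrophages, at -0.35 (SE 0.096, unadjusted p = 0.0011), and C1qc, a chain of complement C1q, at -0.33 (SE 0.13, unadjusted p = 0.020). None of these passed after adjustment by limma. In cHF+ROSI, Clec10a and Folr2 were at -0.35 and -0.22. Adgre1, a surface protein of mature macrophages, was at -0.12, and Ptprc (CD45), carried by all white blood cells, at -0.0052 in cHF+F. Csf1 and Il34, the ligands of Csf1r, were at -0.10 and -0.071 in cHF+F, and at -0.11 and 0.091 in cHF+ROSI. Itgam, the integrin CD11b, did not pass the filter (well above background on 11 of 24 arrays).

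The rest of the MHC class II pathway stayed close to 0. Of 18 genes on the list 7 were kept, 3 lower and 4 higher in cHF+F, with a median log2 change of 0.0053 and none at an unadjusted p under 0.05. The largest of these differences were -0.10 for Rfxank, a subunit of the factor that binds the X box, 0.067 for Ifi30, a thiol reductase of the lysosome, and 0.066 for Rfxap, another subunit of that factor. Ciita itself did not pass the filter, although it was well above background in Cy5 on 21 of 24 arrays. Of the MHC class I pathway, which all nucleated cells use, 8 of 9 kept genes were lower in cHF+F (median -0.098), with Tap1 (-0.18, unadjusted p = 0.020), H2-K1 (-0.11) and Psmb9 (-0.10) differing most. Of all kept probes, 48.8% were lower in cHF+F, and 6.83% were past an unadjusted p of 0.05 by limma in either direction. Among genes of macrophage activation 3 of 13 were kept, Retnla at -0.43 (unadjusted p = 0.024), Ccl2 at -0.21 and Chil3 at 0.035 in cHF+F. In cHF+ROSI the same 3 were at -0.045, 0.17 and -0.068. Between cHF+F and cHF+ROSI they differed by -0.39, -0.38 and 0.10. There Retnla and Ccl2 had an unadjusted p of 0.041 and 0.034 by limma (4.66% of all kept probes were past 0.05), and none passed after adjustment. Tnf, Il1b, Il6, Nos2 and Il10 did not pass the filter.

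Genes of another cell type were set beside the macrophage genes. All 6 endothelial genes of a marker list were lower than in cHF in both diets, by -0.66 to -0.064 in cHF+F (median -0.11, 2 of 6 at an unadjusted p under 0.05) and by -0.48 to -0.094 in cHF+ROSI (median -0.15, 4 of 6). Of all 15933 kept probes, 48.8% and 56.6% were lower in the same order, 629 and 542 of them at an unadjusted p under 0.05 by limma. Cldn5 was the lowest of the 6 in both diets, and the next was Cdh5 at -0.22 in cHF+F and Kdr at -0.26 in cHF+ROSI. The mean log2 ratio of these 6 genes ranged over the arrays from -0.19 to 0.28 in cHF, from -0.39 to 0.051 in cHF+F and from -0.24 to 0.082 in cHF+ROSI. All 6 were well above background on all 24 arrays. The mean of the 20 kept genes of the other macrophage list ranged from -0.19 to 0.25, from -0.41 to 0.18 and from -0.31 to 0.20 in the same order. The part of the endothelial difference in the macrophage values was not tested. The 2 erythrocyte genes kept differed by -0.025 in the median in cHF+F and by -0.42 in cHF+ROSI, and the 8 genes of the adipocyte list by -0.083 and -0.046. Of these 8, Car3 did not follow Adipoq across arrays (below). For the 5 fibroblast genes the medians were 0.0011 (2 of 5 lower) and -0.099 (4 of 5 lower).

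**Figure D3:**
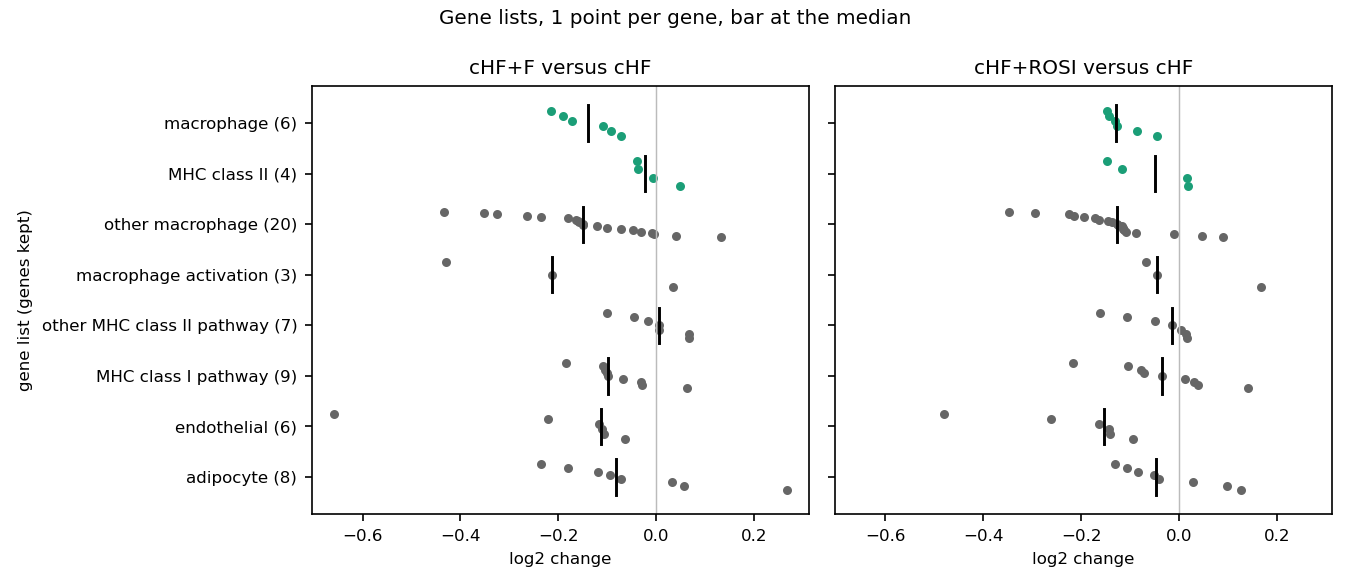
Log2 change (x axis) of each kept gene in lists of related genes (y axis, number of genes in brackets) for cHF+F and cHF+ROSI against cHF, with the genes described here in green and the list median as a black bar. Macrophage and endothelial lists lie mostly left of 0 in both diets (18 of 20 genes of the other macrophage list and 6 of 6 endothelial genes), and the MHC class II lists lie around 0 in cHF+F. Of all kept probes, 48.8% were lower in cHF+F and 56.6% in cHF+ROSI.

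Across the 24 arrays, the median r was 0.656 over the macrophage pairs, 0.70 over the MHC class II pairs and 0.392 over pairs of a macrophage and an MHC class II gene. All 45 pairs of the 10 genes had a positive Pearson r, and 29 of 45 had an adjusted permutation p under 0.05 (26 of 45 with Spearman's rho). The 6 pairs within the MHC class II genes all did, at r = 0.551 to 0.836. The closest pair of all was H2-Ab1 with H2-Eb1 (r = 0.836, rho = 0.836, permutation p = 1e-05, the smallest 100000 permutations can give, adjusted p = 0.000225), followed by Cd74 with H2-Ab1 at r = 0.829. H2-Aa and H2-Eb1 had r = 0.71 (rho = 0.746, permutation p = 8e-05, adjusted p = 0.00072). Among the macrophage genes 12 of 15 pairs passed, led by Csf1r with Mrc1 (r = 0.814, rho = 0.733, adjusted permutation p = 0.000225), and the 3 that missed were Cd68 with Csf1r, Tyrobp and Mrc1. Between macrophage and MHC class II genes 11 of 24 pairs passed, at r from 0.010 to 0.661. Cd68 had the lowest r with the 4 MHC class II genes, 0.010 to 0.19. Its Cy5 signal, 2.9 times background, was also the lowest of the 10 genes. With the mean of each slide removed, r of Cd68 was 0.584 with Csf1r, 0.499 with Tyrobp and 0.575 with Mrc1. With Cd14 and Cd163 it was then 0.48 and 0.367, against 0.497 and 0.463 before. The part of the dim signal in these values was not tested.

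Without the 2 arrays farthest from the median of the first gene of a pair, r was 0.436 to 0.821 within the MHC class II genes and 0.047 to 0.788 within the macrophage genes, the lowest being Csf1r with Cd68. Between the classes it was -0.261 to 0.585. With the mean of each slide removed, 38 of 45 pairs passed. Within the single groups, MHC class II pairs ran from 0.623 to 0.865 in cHF, from 0.738 to 0.927 in cHF+F and from 0.103 to 0.895 in cHF+ROSI, where Cd74 and H2-Aa had the lowest value. Macrophage pairs ran from 0.167 to 0.886, from 0.326 to 0.805 and from 0.186 to 0.876 in the same order, and pairs between the classes from -0.23 to 0.523, from 0.082 to 0.908 and from -0.084 to 0.865. With 8 arrays a group, a single r is loose. As a background, 1.76% of the 15918 other kept probes had an r over 0.5 with the mean of the 6 macrophage genes, and 0.785% with that of the 4 MHC class II genes.

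**Figure D4:**
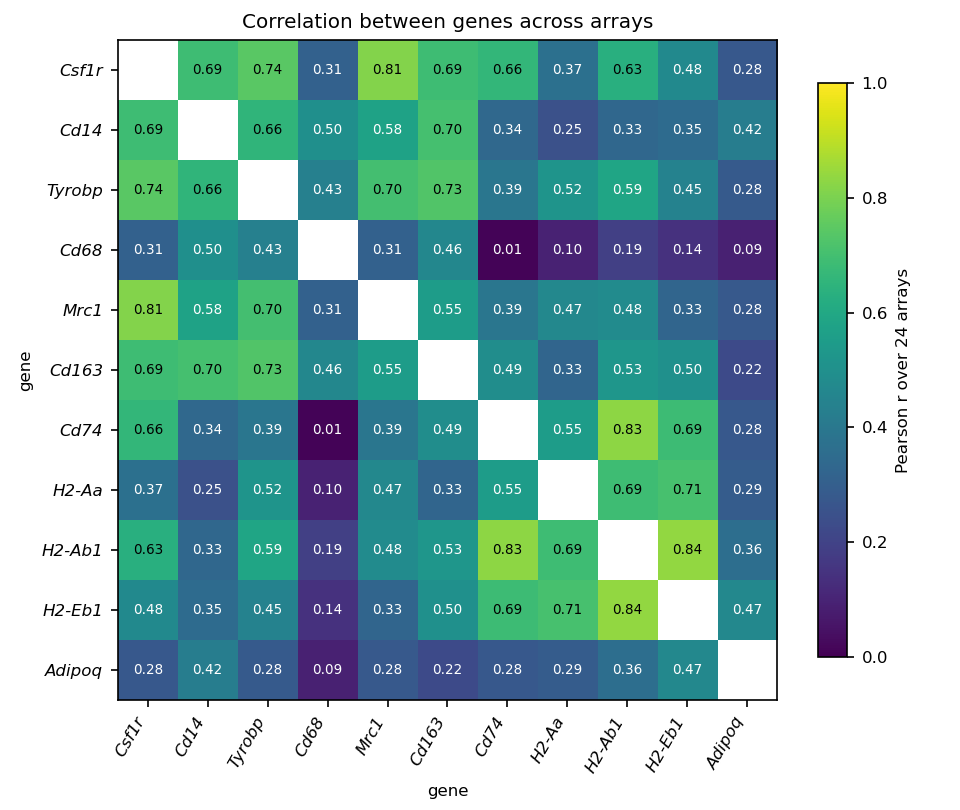
Pearson r across 24 arrays between each pair of genes (both axes list the 10 genes and Adipoq, the colour bar runs from 0 to 1, and each cell prints r). The MHC class II block (Cd74 to H2-Eb1) and the macrophage block without Cd68 are the brightest, up to 0.84, and the Cd68 row is dark against the MHC class II genes.

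The genes most like the mean of the macrophage genes were Lyz2, a lysozyme of macrophages and neutrophils (r = 0.888 over 24 arrays), Adgre1 (0.886), Folr2 (0.884), C1qc (0.883) and Nckap1l, a subunit of an actin regulator of blood cells (0.871). Most like the mean of the MHC class II genes were Myo1g, an unconventional myosin of blood cells (0.773), Mpeg1, a pore-forming protein of macrophages (0.771), Cd52, a surface glycoprotein of leukocytes (0.745), Scara5, a scavenger receptor (0.743), and Lyz1 (0.739), a close paralog of Lyz2 whose transcripts the probe may share.

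The relation to Adipoq bears on RNA of fat tissue in the muscle sample, since Adipoq encodes adiponectin, a hormone that adipocytes secrete. Where in or on the muscle that fat lay was not measured. Adipoq varied far more between mice than any of the 10 genes. Its log2 ratio ran from -1.41 to 0.92 in the cHF mice, from -1.54 to 1.29 in the cHF+F mice and from -1.14 to 0.49 in the cHF+ROSI mice, with means of -0.32 ± 0.80, -0.41 ± 0.93 and -0.42 ± 0.67 (SD, n = 8 each). The adipocyte genes Lep, Plin1, Cidec, Retn, Cfd and Fabp4 followed Adipoq across arrays at r = 0.725 to 0.984, and Car3 did not (r = -0.063).

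All 10 genes had a positive r with Adipoq, between 0.090 for Cd68 and 0.466 for H2-Eb1, where 49.5% of all other kept probes had a positive one. The 10 genes varied together on these arrays, so counts of positive values, here and within groups, are not counts of independent results. No r passed after adjustment over the 10 relations. H2-Eb1 came closest, with r = 0.466 (permutation p = 0.0215, adjusted p = 0.197) and rho = 0.53 (permutation p = 0.00906, adjusted p = 0.0906), and Cd14 followed with r = 0.425 (permutation p = 0.0395, adjusted p = 0.197) and rho = 0.419. Without the arrays of cHF+F replicate 5 and cHF replicate 4, the 2 farthest from the median of Adipoq, H2-Eb1 was at r = 0.319 and Cd14 at 0.399, and the other 8 genes were between -0.068 and 0.215. Of these 8, Tyrobp went from 0.283 to -0.068, Csf1r from 0.277 to 0.059 and Mrc1 from 0.278 to 0.036, whereas Cd74 went from 0.275 to 0.215 and Cd68 from 0.090 to 0.068. With the mean of each slide removed the 10 values ran from 0.0996 to 0.461. With the Cy5 signal alone 3 of 10 genes passed, Tyrobp (r = 0.517, adjusted permutation p = 0.0472), H2-Aa (r = 0.533, 0.0472) and Cd74 (r = 0.488, 0.0486), none of which passed as ratios.

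Within groups, the highest r values were in the cHF mice. There r was positive for all 10 genes, from 0.417 to 0.838, and was highest for Mrc1 (r = 0.838, rho = 0.548, exact permutation p = 0.0125), Csf1r (r = 0.835, rho = 0.714, exact permutation p = 0.0104) and H2-Eb1 (r = 0.777, rho = 0.81, exact permutation p = 0.0246). After adjustment over the 30 relations of 10 genes in 3 groups these p-values were 0.188, 0.188 and 0.246. In the cHF+F mice r ran from -0.163 to 0.397 and in the cHF+ROSI mice from -0.375 to 0.627. Whether the relation differs between groups was not tested.

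**Figure D5:**
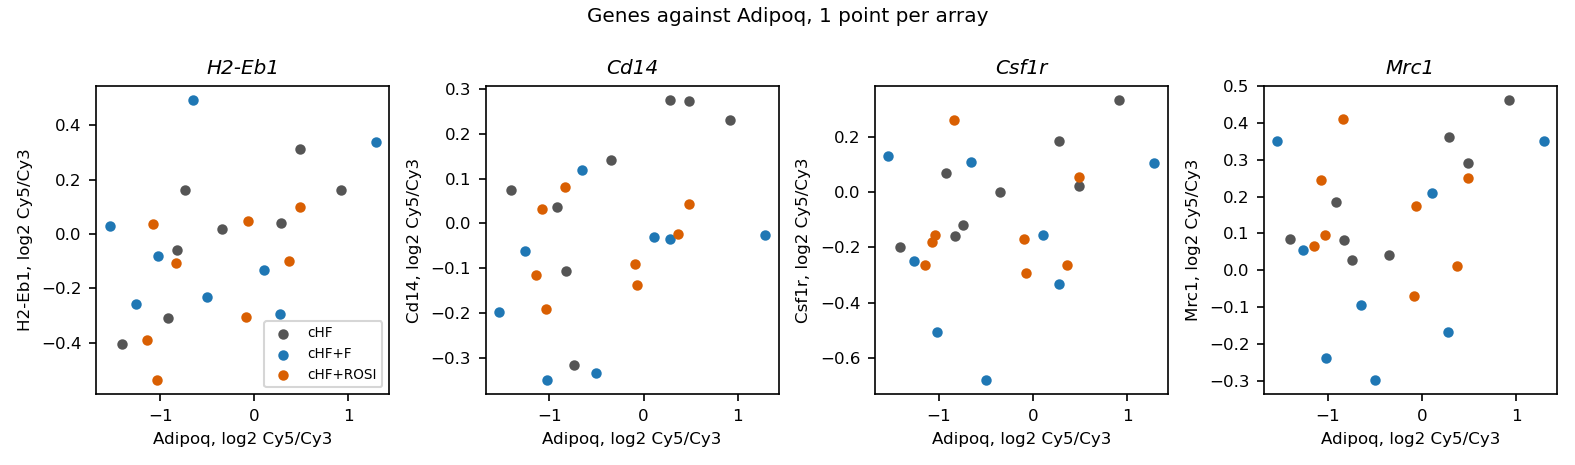
Log2 Cy5/Cy3 of H2-Eb1, Cd14, Csf1r and Mrc1 (y axes) against that of Adipoq (x axes), 1 point per array, coloured by diet group. Over all arrays the points rise loosely with Adipoq (r = 0.466 for H2-Eb1), and within the cHF points r was 0.835 for Csf1r and 0.838 for Mrc1, with the difference between groups not tested.

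Array quality was set beside the same values. Across arrays, r between each gene and the share of spots well above background ran from -0.286 to 0.277, and 0 of 10 had an adjusted permutation p under 0.05. For Cd68, however, r was -0.619 without the 2 arrays farthest from the median share (permutation p = 0.00243, adjusted p = 0.0243), so that its ratio was lower on brighter arrays. In the Cy3 channel of the common pool, 1 of 10 genes (Cd14, above) differed between cHF+F and cHF arrays at an unadjusted p under 0.05 by limma, where 0.496% of all kept probes did. In cHF+ROSI against cHF and in cHF+F against cHF+ROSI it was 0 of 10, beside 1.86% and 0.119% of all kept probes, and no gene passed after adjustment. With slide as a block the counts were 1, 2 and 1 of 10, beside 1.58%, 21.3% and 2.58% of all kept probes, so the signal of the common pool differed most widely between the cHF+ROSI and the cHF arrays. Its part in the ratios was not tested.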

How the data were processed

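Intensities of 24 Agilent 44K mouse arrays (Cy5 for the mouse, Cy3 for the reference pool) were deposited as scanner files which, per the file headers, the authors extracted with Agilent Feature Extraction 10.5.1.1 on build mm8. The median signals and backgrounds were used here. Spots flagged by the scanner software, and spots with a local background over 2 times the median background of the array (0 to 113 per array, of 45018), were left out. Without this second step the background SD fitted by normexp reached 991 (over 100 on 3 arrays and over 5 on 7), against at most 8.29 with it. Background was corrected with normexp (offset 50), each array normalised by loess (span 0.3), and spots of a probe averaged. Probes were kept with at least 4 unflagged arrays per group and a mean signal of at least 2 times background in both channels (15933 of 41174). Of these, 12560 were named through RefSeq accessions, 2542 by the name in the file, and 831 had no name. Each gene is shown at its brightest kept probe. Groups were compared with limma 3.58.1 (R 4.3.3) over all 24 arrays and all kept probes, with Benjamini-Hochberg adjustment. Relations across arrays were tested with 100000 permutations, or all 40320 pairings within a group of 8, two-sided.

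The authors also deposited a table of normalized log2 values, filtered by them at a mean signal of 2 times background and with its centring not stated in its header. Its 16 columns of cHF and cHF+F arrays served as an alternative. A further 8 columns carry the name of a diet that none of the 24 arrays is labelled with, and were not used. Which arrays these 8 columns hold, those of cHF+ROSI or others, was not tested. The number of arrays limits the precision. The genes and lists were chosen with earlier results of these data known. Genes outside the 10 were named by rule: the 3 kept genes of each macrophage and MHC list with the largest difference between cHF+F and cHF, the 5 genes most like each mean, and Ciita, H2-Ea, Csf1, Il34, Adgre1, Itgam, Ptprc and Adipoq. Other genes were named after their values were seen. The fits and permutation tests were checked on simulated data. Arrays with the same replicate number shared a slide. Their deviations from the group means correlated at -0.10 to 0.65 (over 0.1 in 16 of 24 pairs). Nothing says that they share a cage or a litter.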

Additional observations from a re-analysis of the deposited data

How the results depend on the processing

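In all 3 comparisons, 0 of the 10 genes passed an adjusted p of 0.05 by limma under every alternative run. Of 163 recomputed summary values 150 were counted as the same, but for medians that count took in changes of sign. The MHC class II median in cHF+F against cHF was -0.022, and 0.111 with median centring. The macrophage median in cHF+F against cHF+ROSI was -0.025, and 0.113 with the signals processed by Feature Extraction. The number of genes at an unadjusted p under 0.05 in cHF+F against cHF (1, Cd14) was 0 with Cy5 alone, the signals processed by Feature Extraction, median centring, a signal of at least 3 times background (6 genes left), the methods' t-test, or without the 2 arrays that stood apart. It was 2 with array weights, no filter or normexp on all spots (Csf1r and Cd14 in each), and 2 in the authors' table (Cd14 and Mrc1). Leaving out 1 array gave 0 to 3, with 0 without cHF replicate 3 and 3 without cHF+F replicate 5, and in cHF+ROSI against cHF 0 to 1, with 1 without cHF replicate 8. The number related to Adipoq was 3 with Cy5 alone. The fit on all spots and the one without the 2 arrays were chosen after seeing the data.

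With the replicate block (replicate number, which is also the slide), 0 of 10 genes passed in any comparison, and Cd14 in cHF+F against cHF was at -0.191. In the reference channel the block gave 2 genes at an unadjusted p under 0.05 for cHF+ROSI against cHF and 1 for cHF+F against cHF+ROSI, against 0 each without it, and 21.3% and 2.58% of all kept probes. Of 24 arrays, 16 correlated best with an array of their own number.

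Signs turned in 35 of 438 recomputed values of single genes. For cHF+F against cHF, Cy5 alone gave -0.077 for H2-Aa, 0.0212 for H2-Ab1 and 0.0979 for H2-Eb1. Median centring gave 0.0528 for Cd74, 0.0984 for H2-Ab1 and 0.155 for H2-Eb1. The authors' table gave -0.0502 for H2-Aa, 0.00996 for H2-Ab1 and 0.0492 for H2-Eb1. H2-Eb1 was at 0.00736 with no background correction, 0.00234 with normexp on all spots and 0.039 without the 2 arrays apart, and Cd163 at 0.00538 with the Feature Extraction signals. For cHF+ROSI against cHF, Cy5 alone gave 0.0504 for Cd163, -0.167 for Cd74 and -0.279 for H2-Aa. Array weights gave -0.0576 for Cd74 and -0.00877 for H2-Aa, median centring -0.0216 for Cd74, the Feature Extraction signals -0.0253 for H2-Aa, and the fit without the 2 arrays -0.0162 for Cd74. For cHF+F against cHF+ROSI, Cy5 alone gave 0.0943 for Csf1r, 0.119 for Cd14, -0.000309 for Tyrobp and -0.145 for Cd163. Median centring gave 0.022 for Csf1r and 0.0744 for Cd74, normexp on all spots -0.0358 for Cd68 and -0.0277 for Cd163, and the Feature Extraction signals 0.257 for Mrc1. The r with Adipoq was -0.152 for Cd163 and -0.0228 for H2-Ab1 with Cy5 alone, -0.0421 for Mrc1 and -0.0821 for Cd163 with the Feature Extraction signals, and -0.0679 for Tyrobp without the 2 arrays farthest from the median. The causes were not tested.

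Leaving out 1 array at a time moved cHF+F against cHF from -0.138 to 0.0386 for Cd74, from -0.0998 to 0.0248 for H2-Ab1 and from -0.0798 to 0.039 for H2-Eb1. For cHF+ROSI against cHF the ranges were -0.0244 to 0.0831 for Cd74 and -0.0253 to 0.0558 for H2-Aa. For cHF+F against cHF+ROSI they were -0.0207 to 0.109 for Tyrobp, -0.0325 to 0.0554 for Cd68, -0.0295 to 0.0845 for Cd163, -0.156 to 0.0207 for Cd74 and -0.0139 to 0.0744 for H2-Aa. The r of Cd68 with Adipoq ran from -0.00579 to 0.171. Without a change of sign, cHF+F against cHF ran from -0.167 to -0.0373 for Tyrobp, from -0.123 to -0.0312 for Cd68, from -0.161 to -0.0465 for Cd163 and from 0.00313 to 0.0905 for H2-Aa, and cHF+ROSI against cHF from -0.0814 to -0.00535 for Mrc1. The median over the macrophage genes in cHF+F against cHF ran from -0.203 to -0.0699 over the settings and from -0.185 to -0.105 with arrays left out, and that over the MHC class II genes from -0.0954 to 0.111 and from -0.0898 to 0.0317.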
